A study of Homo sapiens with 24 samples.

Results

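The genes described here were 10 amino acid carriers of the plasma membrane, SLC7A11, SLC3A2, SLC7A5, SLC43A1, SLC7A1, SLC1A4, SLC1A5, SLC38A1, SLC38A2 and SLC6A9, picked by name from the 18915 genes of a count table. All 10 were in the table, and all 10 were among the 12685 genes with enough counts to be tested. They were measured by 3′ mRNA sequencing in HepG2, an established human hepatoma cell line, after 10 h of treatment. The 6 conditions were DMSO (the vehicle), bortezomib at 50 nM, nelfinavir at 20 µM, ISRIB at 50 nM, and bortezomib combined at these doses with either nelfinavir or ISRIB. Each condition had 4 biological replicate libraries. Bortezomib blocks the proteasome, nelfinavir is an inhibitor of the HIV protease that also activates the stress response described next, and ISRIB counters the effect of phosphorylated eIF2α on translation. The design asks how each compound changed gene expression alone, and how nelfinavir and ISRIB changed the response to bortezomib.

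As background, plasma membrane carriers set which amino acids a cell can take up or trade for others. When eIF2α is phosphorylated, most translation slows while the transcription factor ATF4 is made, and ATF4, often paired with a C/EBP factor, turns on genes of amino acid uptake and synthesis, several carriers among them. The cystine exchanger SLC7A11, which supplies cysteine for glutathione, is also known as a target of the antioxidant factor NRF2, and NRF2 and its partners bind antioxidant response elements.

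Promoter windows from RefSeq (build GRCh38.p14), from 250 bases before to 50 bases after a transcript start, were at hand for 9 of the 10 genes, all but SLC7A11, in 16 windows. They were searched on both strands for the core of the C/EBP-ATF composite element, TGATGNAA, and for the core of the antioxidant response element, TGACNNNGC. The composite core was found in 5 of the 9 genes, against 4.46% of all 27305 genes with windows. By window it was found in 5 of the 16, against 3.62% of all 35116 windows of the same length. The antioxidant core was found in 4 of the 9 genes, against 16.1% of all genes, and in 4 of the 16 windows, against 13.3% of all windows. The matches are shown because they place the letters that the factors above are known to bind beside the genes that follow. Each line gives 30 bases in the direction of the gene, with the match in capitals, and a match on the other strand reads as the reverse complement. The first 5 lines hold the composite core and the last 4 the antioxidant core, and no match of one overlapped a match of the other.
SLC1A4, chr2:64989381-64989410, plus strand: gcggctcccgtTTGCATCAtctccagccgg
SLC1A5, chr19:46784893-46784922, minus strand: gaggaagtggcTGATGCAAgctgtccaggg
SLC3A2, chr11:62881719-62881748, plus strand: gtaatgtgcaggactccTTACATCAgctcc
SLC7A1, chr13:29595663-29595692, minus strand: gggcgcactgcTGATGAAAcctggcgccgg
SLC38A1, chr12:46266502-46266531, minus strand: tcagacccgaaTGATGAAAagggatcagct
SLC7A5, chr16:87869490-87869519, minus strand: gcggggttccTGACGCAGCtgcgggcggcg
SLC3A2, chr11:62881652-62881681, plus strand: cgagggtgggTGACTCAGCgtcctccttcc
SLC7A1, chr13:29595754-29595783, minus strand: tgcccggcggTGACGCGGCcgagcgggccg
SLC1A5, chr19:46787385-46787414, minus strand: cctggatcttGCGAGGTCAgctcccgctcc
The composite match began 7 bases before the start in SLC1A4, 97 bases before it in SLC1A5 and 4 bases before it in SLC38A1, and at base 8 after it in SLC7A1 and base 38 after it in SLC3A2. A match is a stretch of letters and not a measured site, and nothing follows from windows without one.

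Total counts ran from 5154533 to 6943164 over the 24 libraries. Mitochondrially encoded genes took 18% to 23.2% of the counts in the libraries without bortezomib and 24.9% to 40.2% in those with it. Levels are given in CPM, a library's counts for a gene as a share of its scaled total, and the scaling used TMM factors (trimmed mean of M-values, from edgeR). These factors were 1.161 to 1.24 without bortezomib and 0.7862 to 0.8694 with it. With library totals alone as the scale, the median log2 fold change of all genes moved by -0.497 for bortezomib against DMSO, -0.559 for bortezomib with ISRIB against DMSO and -0.472 for bortezomib against nelfinavir, and by -0.062 to -0.009 in the others. The share of higher genes among the calls then went from 51.6% to 19.2%, from 52.7% to 17.5% and from 51.6% to 16.4% in those 3 comparisons, from 56.4% to 40.5% for ISRIB added to bortezomib, and from 60.8% to 49.4% for its interaction with bortezomib. With totals free of mitochondrial genes, a scale chosen after the data were seen, that median moved by -0.25, -0.262 and -0.206 in the first 3, by -0.17 for nelfinavir added to bortezomib and by -0.128 for its interaction with bortezomib. All fold changes below are relative to the TMM scale. Of 7 hepatocyte markers, all had counts in every library, with ALB at 1560 to 3530 CPM. Of 5 markers of other cell types, PTPRC, PECAM1 and COL1A2 had no row in the table, COL1A1 reached at most 1.11 CPM and RBFOX3 at most 0.563 CPM.

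The carriers together stood at a higher level with both bortezomib and nelfinavir. Their summed level was 1045 ± 36.2 CPM in DMSO (SD, n = 4), 985.7 ± 53.3 with ISRIB, 2399 ± 88.3 with nelfinavir, 2635 ± 80.3 with bortezomib, 2449 ± 67 with bortezomib and ISRIB, and 3646 ± 144 with bortezomib and nelfinavir. The lowest library with bortezomib and nelfinavir, at 3477 CPM, lay above every library of the other conditions on this scale. As an unscaled share of all counts, the carriers took 0.122% to 0.13% in DMSO, 0.273% to 0.302% with nelfinavir, 0.219% to 0.232% with bortezomib, 0.193% to 0.207% with bortezomib and ISRIB, and 0.295% to 0.315% with bortezomib and nelfinavir. On those shares nelfinavir stood above bortezomib, and its libraries overlapped those of the combination with bortezomib. In bulk RNA, fewer cells expressing a gene and less of its RNA per cell cannot be told apart.

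A gene counts as called where edgeR's quasi-likelihood test gave an adjusted p (Benjamini-Hochberg, over all genes tested) under 0.05. With bortezomib against DMSO, 8 of the 10 carriers were called higher and 2, SLC7A5 and SLC43A1, lower, where 53.4% of all 12685 genes were called, 27.6% higher and 25.8% lower. With nelfinavir against DMSO, all 10 were called higher, where 19.2% of all genes were called, 10.4% higher and 8.84% lower. The median log2 fold change of the 10 was 1.67 with bortezomib and 1.33 with nelfinavir, where the median of all genes was 0.002 and 0.007. With ISRIB alone, 0 of the 10 carriers and 0% of all genes were called in edgeR. At an unadjusted p under 0.05 there were 2 carriers and 703 genes, and DESeq2 called 3 genes, none of them a carrier. The comparisons with DMSO share the 4 DMSO libraries, and those with bortezomib alone share its 4 libraries.

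Addition of nelfinavir to bortezomib raised 7 carriers, SLC7A5 and SLC43A1 among them, and lowered 1, where 28.9% of all genes were called, 15.6% higher and 13.4% lower. Addition of ISRIB to bortezomib lowered 3 carriers and raised 1, where 12.2% of all genes were called, 6.91% higher and 5.34% lower. The median log2 fold change of the 10 was 0.47 for the addition of nelfinavir and -0.29 for that of ISRIB. Against DMSO, the combination of bortezomib and ISRIB left 8 carriers higher and 1 lower, where 54.3% of all genes were called, 28.6% higher and 25.6% lower.

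**Figure D1:**
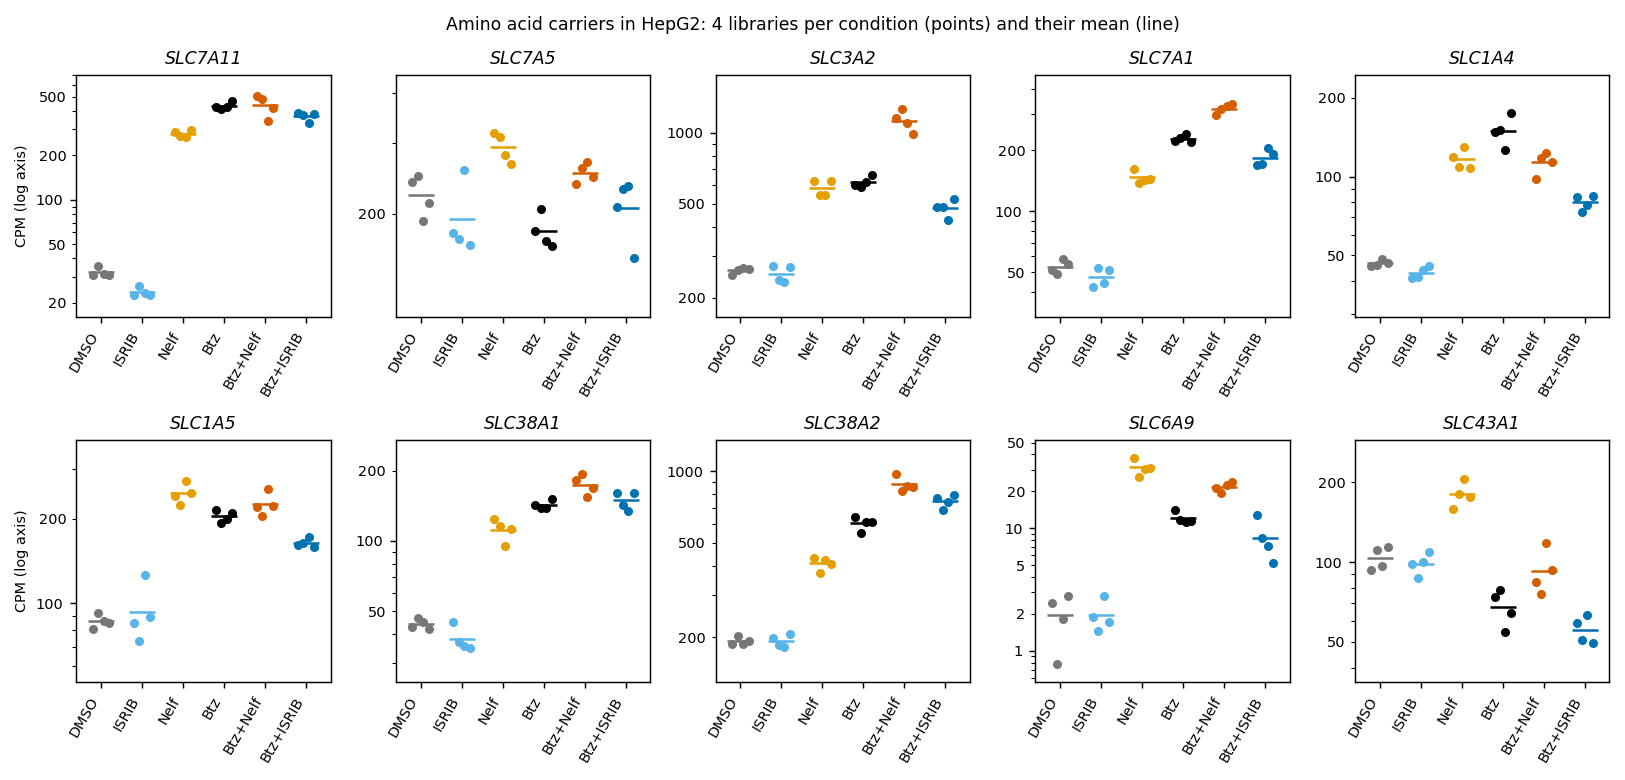
Level of each carrier in CPM (log axis) in the 24 libraries, with 1 point per library and a line at the mean of the 4 libraries of each condition (Nelf, nelfinavir; Btz, bortezomib). The DMSO and ISRIB libraries sit lowest for 8 genes, while the means of SLC7A5 and SLC43A1 are lowest with bortezomib or with bortezomib and ISRIB.

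SLC7A11 (ENSG00000151012, GRCh37 chr4:139085251-139163503, minus strand) encodes the light chain of the cystine-glutamate exchanger. It stood at 31.1, 35.8, 31.2 and 30.8 CPM in DMSO, and at 22.6, 26.1, 23.3 and 22.6 CPM with ISRIB. It stood at 288, 269, 266 and 298 CPM with nelfinavir, and at 426, 412, 425 and 465 CPM with bortezomib. It stood at 504, 485, 342 and 421 CPM with bortezomib and nelfinavir, and at 390, 376, 332 and 383 CPM with bortezomib and ISRIB. Every treated library but those of ISRIB alone thus lay far above DMSO, and the 4 bortezomib libraries lay above all nelfinavir ones. The gene rose 13.4-fold with bortezomib (log2 3.74, SE 0.105, adjusted p = 1.648e-24) and 8.70-fold with nelfinavir (log2 3.12, SE 0.103, adjusted p = 5.612e-22). By p it ranked number 6 of the 12685 genes for bortezomib. Addition of nelfinavir to bortezomib left it at a log2 difference of 0.02 with a 95% interval from -0.17 to 0.21 (adjusted p = 0.9039), and addition of ISRIB at -0.22 with an interval from -0.41 to -0.04 (adjusted p = 0.1113). With ISRIB alone, all 4 libraries lay below all 4 of DMSO, and the log2 difference was -0.45 (SE 0.107), with a p of 0.0002068 before and 0.215 after adjustment. That last difference was called without the filter on low counts (adjusted p = 0.04295) and in a model of the 8 libraries compared (adjusted p = 0.03108).

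SLC3A2 (ENSG00000168003, GRCh37 chr11:62623476-62656352, plus strand) encodes the heavy chain that brings SLC7A11, SLC7A5 and related light chains to the cell surface. It measured 249, 263, 268 and 265 CPM in DMSO, and 273, 237, 233 and 269 CPM with ISRIB. Nelfinavir gave 622, 543, 545 and 622 CPM, and bortezomib 600, 587, 618 and 660 CPM. The combination with nelfinavir gave 1150, 1260, 1100 and 991 CPM, and that with ISRIB 487, 483, 429 and 522 CPM. The 4 libraries of bortezomib and nelfinavir lay above all others, and those of bortezomib and ISRIB lay between DMSO and bortezomib alone without overlap. The gene rose 2.36-fold with bortezomib (log2 1.24, SE 0.0836, adjusted p = 2.75e-14) and 2.23-fold with nelfinavir (log2 1.16, SE 0.0833, adjusted p = 6.352e-13). Nelfinavir on top of bortezomib raised it a further 1.83-fold (log2 0.87, SE 0.0825, adjusted p = 9.957e-10), number 56 of all genes by p. ISRIB on top of bortezomib lowered it 1.28-fold (log2 -0.36, SE 0.0826, adjusted p = 0.00303). SLC3A2 was thus called in both additions and its light chain SLC7A11 in neither, though with library totals alone as the scale SLC7A11 was called lower on addition of ISRIB (log2 -0.29, adjusted p = 0.03826). The difference between the genes was not tested.

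SLC7A5 (ENSG00000103257, GRCh37 chr16:87863629-87903113, minus strand), the large neutral amino acid exchanger LAT1 and the other main partner of SLC3A2, changed far less. It measured 239, 248, 192 and 213 CPM in DMSO, and 179, 173, 256 and 167 CPM with ISRIB. Nelfinavir gave 317, 310, 280 and 266 CPM, and bortezomib 181, 205, 171 and 166 CPM. The combination with nelfinavir gave 237, 259, 269 and 246 CPM, and that with ISRIB 208, 230, 234 and 155 CPM. The nelfinavir libraries lay above all 4 of DMSO, while those of bortezomib overlapped DMSO. The log2 fold change was 0.40 with nelfinavir (SE 0.118, adjusted p = 0.01474) and -0.30 with bortezomib (SE 0.119, adjusted p = 0.03107). Both calls rested on single libraries. The bortezomib call was lost without DMSO replicate 1 (adjusted p = 0.08175) or replicate 2 (adjusted p = 0.05285), and the nelfinavir call without DMSO replicate 3 (adjusted p = 0.0718) or nelfinavir replicate 1 (adjusted p = 0.05205). The addition of nelfinavir to bortezomib raised the gene by 0.49 on the log2 scale (SE 0.12, adjusted p = 0.00248). With bortezomib and ISRIB its difference from DMSO was not called on the TMM scale (log2 -0.11, adjusted p = 0.4491), but it was lower with library totals alone (log2 -0.67, adjusted p = 1.774e-05) and with totals free of mitochondrial genes (log2 -0.38, adjusted p = 0.005835).

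SLC43A1 (ENSG00000149150, GRCh37 chr11:57252007-57283253, minus strand), LAT3, a carrier of leucine and other large neutral amino acids that needs no heavy chain, went in opposite directions with the single compounds. It measured 93.4, 111, 97.1 and 114 CPM in DMSO, and 98.3, 87.4, 100 and 109 CPM with ISRIB. Nelfinavir gave 159, 181, 207 and 177 CPM, and bortezomib 73.8, 78.2, 54.3 and 64.2 CPM. The combination with nelfinavir gave 83.9, 76.1, 118 and 93.7 CPM, and that with ISRIB 58.8, 50.7, 63 and 49.4 CPM. All nelfinavir libraries lay above and all bortezomib libraries below those of DMSO. The gene rose 1.74-fold with nelfinavir (log2 0.80, SE 0.118, adjusted p = 4.281e-06) and fell 1.54-fold with bortezomib (log2 -0.62, SE 0.123, adjusted p = 7.193e-05). Added to bortezomib, nelfinavir raised it 1.38-fold (log2 0.46, SE 0.125, adjusted p = 0.00545), a call that was lost with library totals free of mitochondrial genes as the scale (log2 0.28, adjusted p = 0.0674). With bortezomib and ISRIB it was 1.87-fold lower than in DMSO (log2 -0.91, SE 0.125, adjusted p = 2.359e-07).

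SLC7A1 (ENSG00000139514, GRCh37 chr13:30083551-30169825, minus strand), the cationic carrier CAT1 that takes up arginine and lysine, stepped up through the conditions. It ranged from 48.9 to 57.9 CPM in DMSO, from 42.4 to 52.4 CPM with ISRIB and from 138 to 162 CPM with nelfinavir. It ranged from 218 to 239 CPM with bortezomib, from 299 to 336 CPM with bortezomib and nelfinavir and from 169 to 205 CPM with bortezomib and ISRIB. By mean from low to high, the order was ISRIB, DMSO, nelfinavir, bortezomib with ISRIB, bortezomib alone, and bortezomib with nelfinavir. Only DMSO and ISRIB overlapped among neighbours in this order. The gene rose 4.26-fold with bortezomib (log2 2.09, SE 0.0901, adjusted p = 2.005e-19) and 2.75-fold with nelfinavir (log2 1.46, SE 0.0888, adjusted p = 9.882e-15). Nelfinavir on top of bortezomib raised it by 0.49 on the log2 scale (SE 0.0849, adjusted p = 3.506e-05). ISRIB on top of bortezomib lowered it 1.24-fold (log2 -0.31, SE 0.0858, adjusted p = 0.01546). That call was lost without replicate 1 of bortezomib with ISRIB (adjusted p = 0.06846), without its replicate 2 (adjusted p = 0.06936) or without bortezomib replicate 3 (adjusted p = 0.0529).

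SLC1A4 (ENSG00000115902, GRCh37 chr2:65215611-65250999, plus strand), the exchanger ASCT1 of alanine, serine, cysteine and threonine, was lowered by both additions to bortezomib. It measured 45.7, 45.9, 48.4 and 46.6 CPM in DMSO, and 40.9, 41.5, 43.9 and 45.5 CPM with ISRIB. Nelfinavir gave 119, 109, 130 and 108 CPM, and bortezomib 148, 150, 126 and 175 CPM. The combination with nelfinavir gave 97.9, 118, 123 and 114 CPM, and that with ISRIB 83.9, 73.1, 77.7 and 84.4 CPM. The libraries of bortezomib with ISRIB lay above those of DMSO and of ISRIB alone, and below those of bortezomib alone and of nelfinavir alone, with no overlap. The gene rose 3.21-fold with bortezomib (log2 1.68, SE 0.0981, adjusted p = 6.278e-16) and 2.50-fold with nelfinavir (log2 1.32, SE 0.097, adjusted p = 1.08e-12). ISRIB on top of bortezomib lowered it 1.88-fold (log2 -0.91, SE 0.0971, adjusted p = 2.914e-08), number 37 of all genes by p. It remained 1.71-fold above DMSO (log2 0.77, SE 0.0991, adjusted p = 5.743e-08), which was not called with library totals alone as the scale (log2 0.21, adjusted p = 0.06291). In combination with bortezomib, nelfinavir lowered it 1.32-fold (log2 -0.40, SE 0.0951, adjusted p = 0.001681).

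SLC1A5 (ENSG00000105281, GRCh37 chr19:47278140-47291851, minus strand), the glutamine exchanger ASCT2, ranged from 81 to 92.3 CPM in DMSO and from 73.5 to 126 CPM with ISRIB. It ranged from 223 to 272 CPM with nelfinavir, from 193 to 214 CPM with bortezomib, from 204 to 255 CPM with bortezomib and nelfinavir and from 159 to 172 CPM with bortezomib and ISRIB. The nelfinavir libraries were above all those of bortezomib alone, and the libraries with bortezomib and ISRIB below them. The gene rose 2.37-fold with bortezomib (log2 1.24, SE 0.108, adjusted p = 1.281e-11) and 2.85-fold with nelfinavir (log2 1.51, SE 0.108, adjusted p = 5.158e-13). The difference on addition of nelfinavir to bortezomib was 0.14 on the log2 scale, with a 95% interval from -0.07 to 0.36 (adjusted p = 0.3319). For the addition of ISRIB it was -0.31, with an interval from -0.53 to -0.09 and an adjusted p of 0.0504, and the 8 alternative settings that did not leave out a single library gave adjusted p-values from 0.0145 to 0.0486.

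SLC38A1 (ENSG00000111371, GRCh37 chr12:46576846-46663800, minus strand) and SLC38A2 (ENSG00000134294, GRCh37 chr12:46751971-46766556, minus strand) lie close together on chromosome 12 and encode SNAT1 and SNAT2, sodium-coupled carriers of glutamine, alanine and other small neutral amino acids. SLC38A1 ranged from 41.8 to 46.9 CPM in DMSO, from 34.8 to 45 CPM with ISRIB, from 94.9 to 124 CPM with nelfinavir, from 138 to 152 CPM with bortezomib, from 154 to 194 CPM with bortezomib and nelfinavir and from 134 to 161 CPM with bortezomib and ISRIB. The groups with ISRIB and without it overlapped, both alone and on top of bortezomib. SLC38A1 rose 3.23-fold with bortezomib (log2 1.69, SE 0.101, adjusted p = 1.029e-15) and 2.54-fold with nelfinavir (log2 1.34, SE 0.0997, adjusted p = 1.377e-12). Nelfinavir on top of bortezomib raised it 1.22-fold (log2 0.29, SE 0.0963, adjusted p = 0.02141), which was not called in a model of the 8 libraries compared (adjusted p = 0.06211) or with totals free of mitochondrial genes (adjusted p = 0.3684). For ISRIB on top of bortezomib the log2 difference was 0.07, with a 95% interval from -0.13 to 0.26.

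SLC38A2 measured 187, 203, 187 and 192 CPM in DMSO, and 199, 186, 181 and 206 CPM with ISRIB. Nelfinavir gave 433, 373, 422 and 407 CPM, and bortezomib 642, 549, 609 and 613 CPM. The combination with nelfinavir gave 971, 826, 865 and 862 CPM, and that with ISRIB 775, 687, 746 and 798 CPM. Both combinations lay above bortezomib alone without overlap, and SLC38A2 was the 1 carrier that ISRIB raised on top of bortezomib (1.25-fold, log2 0.32, SE 0.0759, adjusted p = 0.004513). It rose 3.14-fold with bortezomib (log2 1.65, SE 0.0782, adjusted p = 2.335e-18), 2.13-fold with nelfinavir (log2 1.09, SE 0.0772, adjusted p = 4.678e-13), and a further 1.46-fold when nelfinavir was added to bortezomib (log2 0.55, SE 0.0759, adjusted p = 1.348e-06).

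SLC6A9 (ENSG00000196517, GRCh37 chr1:44457172-44497139, minus strand), the glycine carrier GlyT1, had 6 to 23 counts per library in DMSO, whereas the other 9 genes had at least 165 counts in every library. It measured 2.44, 0.781, 1.82 and 2.82 CPM in DMSO, and 1.89, 1.44, 2.82 and 1.73 CPM with ISRIB. Nelfinavir gave 37.6, 26.1, 30.5 and 31.2 CPM, and bortezomib 14.1, 11.6, 11.2 and 11.5 CPM. The combination with nelfinavir gave 21.3, 19.5, 22.6 and 23.8 CPM, and that with ISRIB 12.9, 8.38, 7.16 and 5.18 CPM. Nelfinavir alone gave the highest libraries, above those of the combination without overlap, an order seen also in SLC43A1 but not in SLC3A2 or SLC38A2. By mean, nelfinavir alone was highest in SLC7A5 and SLC1A5 too, with libraries that overlapped those of the combination. The gene rose 15.6-fold with nelfinavir (log2 3.97, SE 0.249, adjusted p = 2.407e-14) and 6.04-fold with bortezomib (log2 2.60, SE 0.267, adjusted p = 5.742e-10). Nelfinavir on top of bortezomib raised it 1.81-fold (log2 0.85, SE 0.216, adjusted p = 0.003163). For ISRIB on top of bortezomib the log2 difference was -0.52 (SE 0.237, adjusted p = 0.1559), and without replicate 1 of bortezomib with ISRIB it was -0.80 and was called (adjusted p = 0.03343).

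**Figure D2:**
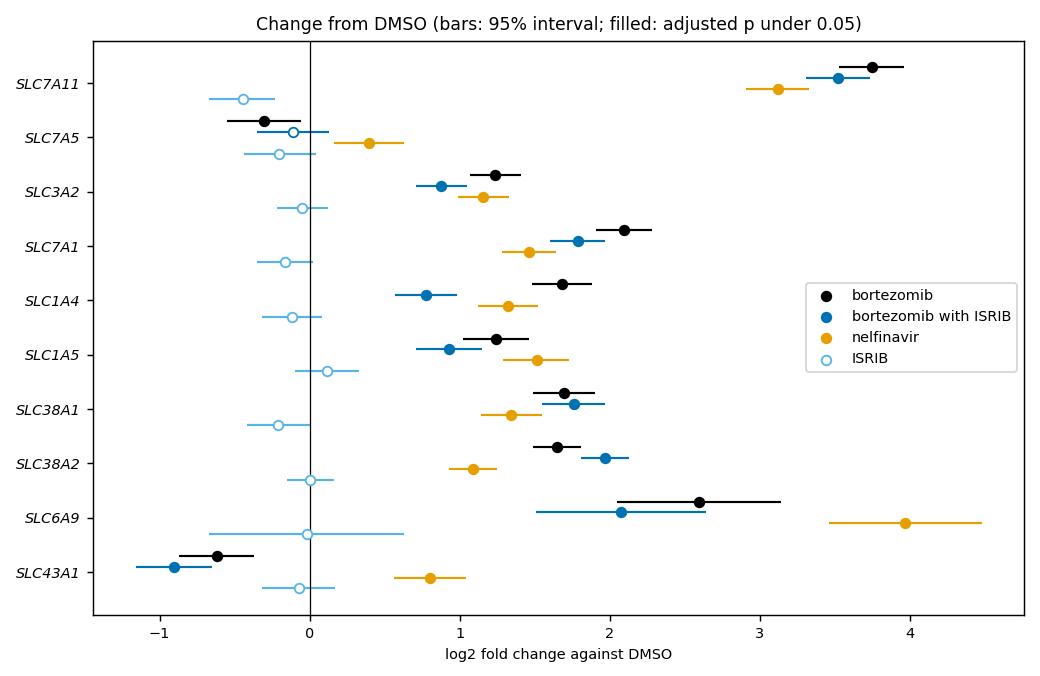
Log2 fold change of each carrier against DMSO with bortezomib, bortezomib and ISRIB, nelfinavir, and ISRIB, with 95% intervals from edgeR and filled points at an adjusted p under 0.05. SLC7A11 and SLC6A9 show the largest increases, 3.74 and 2.60 with bortezomib and 3.12 and 3.97 with nelfinavir, and all 10 points for ISRIB alone are open.

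**Figure D3:**
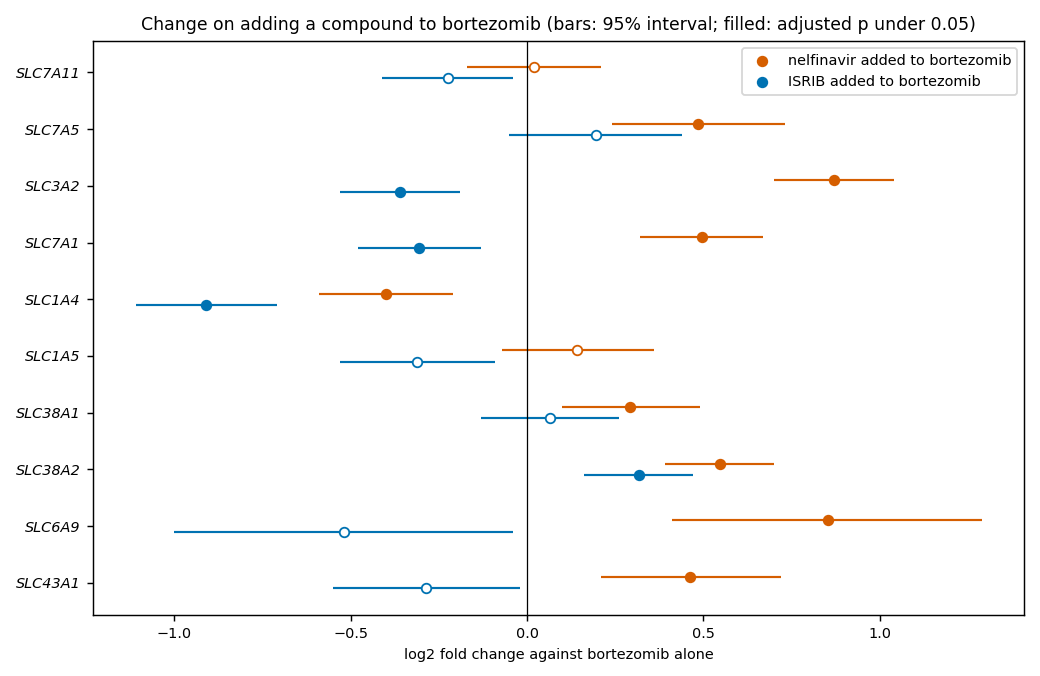
Log2 fold change of each carrier on adding nelfinavir or ISRIB to bortezomib, against bortezomib alone, with 95% intervals from edgeR and filled points at an adjusted p under 0.05. SLC3A2 and SLC7A1 rose with nelfinavir and fell with ISRIB, SLC1A4 fell with both (-0.40 and -0.91), and SLC38A2 rose with both (0.55 and 0.32).

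The single compounds were also compared with each other. Of the 10 carriers, 5 were higher with bortezomib than with nelfinavir and 4 lower, where 48.7% of all genes were called, 25.2% higher and 23.6% lower. Higher with bortezomib were SLC7A11 (log2 0.62, SE 0.0917), SLC7A1 (log2 0.63, SE 0.0854), SLC1A4 (log2 0.36, SE 0.0938), SLC38A1 (log2 0.35, SE 0.0963) and SLC38A2 (log2 0.56, SE 0.0761), though with library totals alone as the scale none of the 5 was called and SLC1A4 and SLC38A1 turned to -0.11 and -0.13. Higher with nelfinavir were SLC43A1 (log2 -1.42, SE 0.123), SLC6A9 (log2 -1.37, SE 0.21), SLC7A5 (log2 -0.70, SE 0.119) and SLC1A5 (log2 -0.27, SE 0.105), given as bortezomib minus nelfinavir. SLC3A2 differed by 0.08, with a 95% interval from -0.09 to 0.25, and with library totals alone by -0.40 (adjusted p = 7.462e-05). The SLC1A4 call was lost without bortezomib replicate 4 (adjusted p = 0.05028), and the SLC1A5 call without nelfinavir replicate 3 (adjusted p = 0.1121) or replicate 4 (adjusted p = 0.05563). Mitochondrial shares also differed between these groups, 32.8% to 35.5% with bortezomib and 18% to 21.6% with nelfinavir. With totals free of mitochondrial genes as the scale, 7 carriers were called. The calls of SLC1A4 (log2 0.15, adjusted p = 0.1537) and SLC38A1 (log2 0.14, adjusted p = 0.2442) were lost. Whether the mitochondrial shares themselves played a part in the result was not tested.

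Whether nelfinavir had the same effect with and without bortezomib was tested as an interaction, the log2 change on adding nelfinavir to bortezomib minus that on adding it to DMSO. It was negative and called for 7 of the 10 carriers and positive for 0, where 19.7% of all genes were called, 9.74% higher and 10.0% lower. For SLC7A11 it was -3.10 (SE 0.136, adjusted p = 6.581e-18), number 2 of all 12685 genes by p. Its log2 changes from DMSO of 3.74 and 3.12 would add to 6.86, a 117-fold rise, and the combination gave 3.76, a 13.6-fold rise. For SLC6A9 the interaction was -3.12 (SE 0.334, adjusted p = 1.664e-08), with single changes adding to 6.56 and a measured change of 3.45. For SLC1A4 it was -1.72 (SE 0.136, adjusted p = 2.095e-11), with a sum of 3.0 and a measured change of 1.28. This measured change was below the 1.68 of bortezomib alone. It was near the 1.32 of nelfinavir alone, whose libraries overlapped those of the combination. The interaction was -1.37 for SLC1A5, -1.05 for SLC38A1, -0.97 for SLC7A1 and -0.54 for SLC38A2, all called. It was not called for SLC3A2 (-0.29, 95% interval -0.52 to -0.05, adjusted p = 0.07891), SLC43A1 (-0.34, interval -0.69 to 0.01, adjusted p = 0.169) or SLC7A5 (0.09, interval -0.25 to 0.43, adjusted p = 0.7574). The measured change of SLC3A2 was 2.11 and the sum of its single changes 2.40, whereas SLC7A11 measured 3.76 with both compounds and 3.74 with bortezomib alone.

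**Figure D4:**
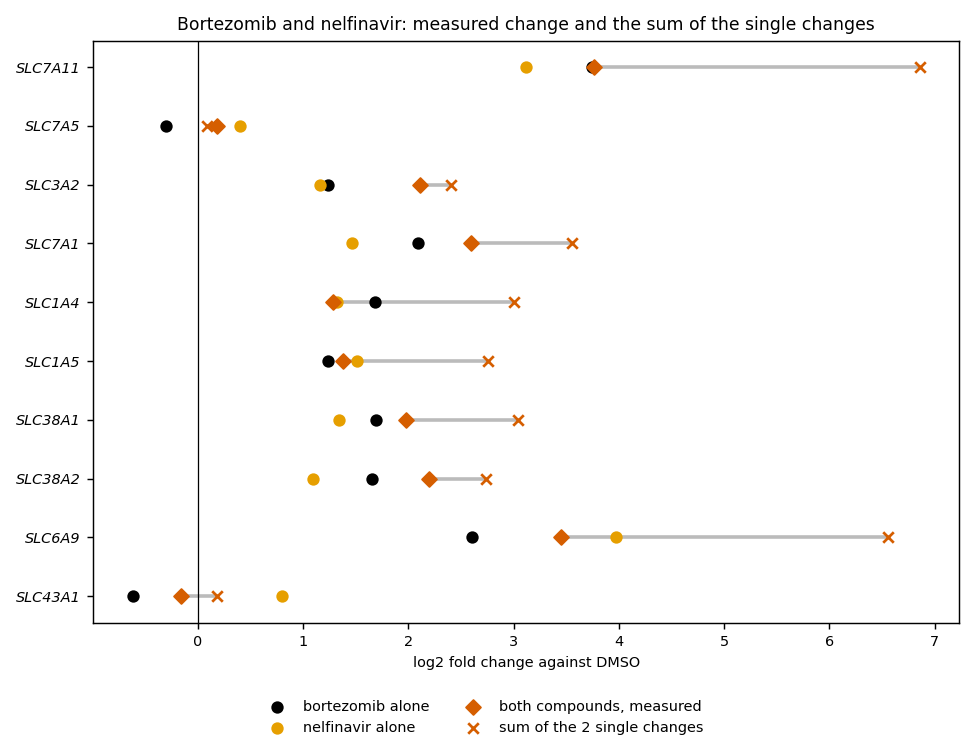
Log2 fold change of each carrier against DMSO with bortezomib alone, nelfinavir alone and both compounds, beside the sum of the single changes, with a grey line from the measured to the summed value. The measured change lies below the sum in 9 genes, by the most in SLC7A11 (3.76 against 6.86) and SLC6A9 (3.45 against 6.56), and above it in SLC7A5 (0.18 against 0.09).

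For ISRIB, the same interaction was called for 1 carrier, SLC1A4, at -0.79 (SE 0.139, adjusted p = 0.0003858), where 4.82% of all genes were called, 2.93% higher and 1.89% lower. Next by p were SLC38A2 at 0.31 (adjusted p = 0.09278), SLC1A5 at -0.43 (adjusted p = 0.1033) and SLC3A2 at -0.31 (adjusted p = 0.1232), none of them called. Without ISRIB replicate 2, SLC1A5 was called at -0.53 (adjusted p = 0.03279), and without ISRIB replicate 3, SLC7A5 was called at 0.56 (adjusted p = 0.02858). For SLC7A11 the interaction was 0.23, with a 95% interval from -0.06 to 0.51.

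Other amino acid carriers were listed by where they sit in the cell. Of 22 further plasma membrane carriers, SLC3A1, SLC6A19 and SLC7A7 had too few counts to be tested, and others had no row in the table. Of the 10 tested, 4 were higher and 2 lower with bortezomib, 3 higher and 1 lower with nelfinavir. For this list and those that follow, the shares of all genes were 27.6% higher and 25.8% lower with bortezomib, or 53.4% in all, and 10.4% higher and 8.84% lower with nelfinavir. The largest of these changes was in SLC6A14, a broad carrier of neutral and cationic amino acids, which fell 6.96-fold with bortezomib (log2 -2.80, SE 0.168, adjusted p = 1.156e-15), from 57.1 to 70.5 CPM in DMSO to 6.2 to 11.4 CPM. SLC36A4 rose 2.43-fold with bortezomib (log2 1.28, SE 0.181, adjusted p = 3.399e-07), and the glutamate carrier SLC1A2, at 1 to 10 counts per DMSO library, rose 4.12-fold with nelfinavir (log2 2.04, SE 0.597, adjusted p = 0.01308). The median log2 fold change of the 10 tested was 0.04 with bortezomib and 0.06 with nelfinavir, near the medians of all genes given above.

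All 6 lysosomal carriers on the list were higher with bortezomib, where 27.6% of all genes were, and 3 with nelfinavir, where 10.4% were, with medians of 1.02 and 0.39 on the log2 scale. PQLC2, which exports cationic amino acids from lysosomes, rose 2.81-fold with bortezomib (log2 1.49, SE 0.148), SLC38A7 rose 2.20-fold (log2 1.14, SE 0.149) and the cystine exporter CTNS 2.02-fold (log2 1.02, SE 0.179). Of 8 mitochondrial carriers, 1 was higher and 3 were lower with bortezomib, and 1 was higher with nelfinavir, with medians of -0.19 and 0.07. SFXN3 fell 3.14-fold with bortezomib (log2 -1.65, SE 0.189, adjusted p = 5.465e-09). SLC25A12 and SLC25A15 fell by 1.42 and 1.36 on the log2 scale, the former at 0 to 7 counts per bortezomib library.

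**Figure D5:**
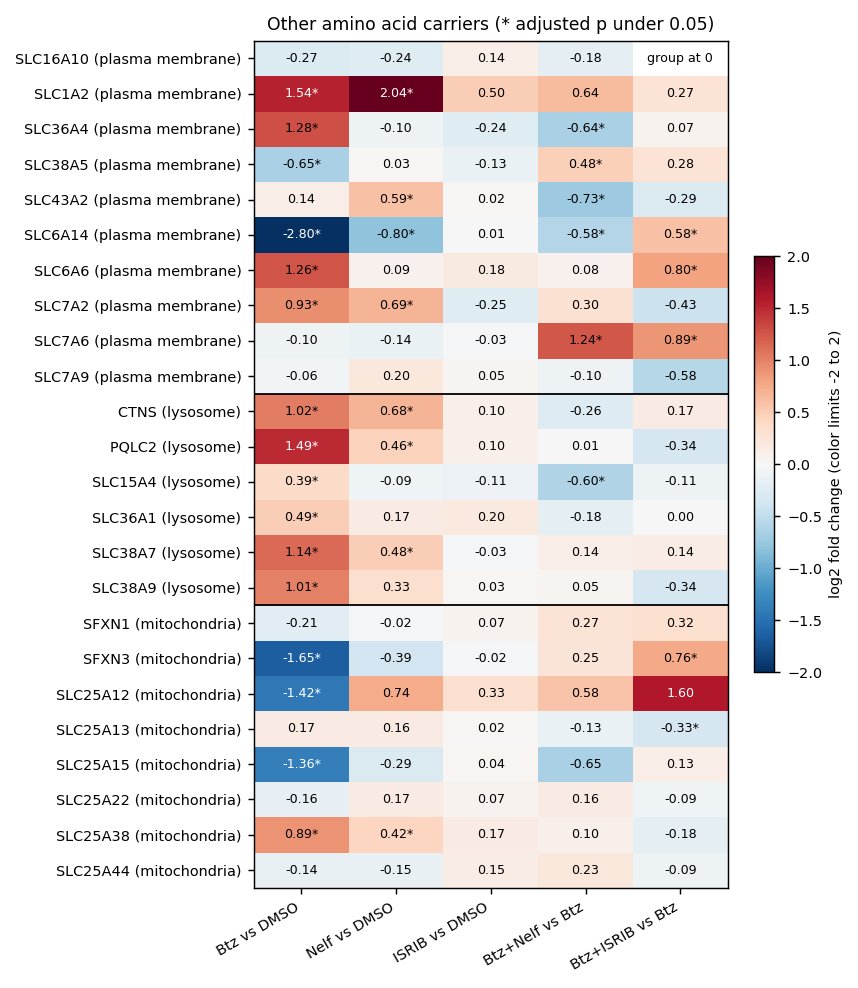
Log2 fold change of 24 other amino acid carriers in 5 comparisons, grouped as plasma membrane, lysosomal and mitochondrial, with a star at an adjusted p under 0.05 in edgeR (colors limited to -2 and 2). All 6 lysosomal genes are starred and positive with bortezomib, and no gene is starred with ISRIB alone; a cell marked "group at 0" has no counts in 1 of its groups.

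Genes that report on the ATF4 and NRF2 pathways were counted beside the carriers. Of 8 ATF4 readout genes, 7 were tested, and all 7 were higher with bortezomib and with nelfinavir, with a median log2 fold change of 2.44 in each. On top of bortezomib, nelfinavir raised 6 of the 7, where 15.6% of all genes were higher. ISRIB on top of bortezomib lowered 2, where 5.34% of all genes were lower. The interaction of nelfinavir with bortezomib was negative and called in all 7, where it was so in 10% of all genes. ASNS, which makes asparagine, went from 13.2 to 17.2 CPM in DMSO to 129 to 168 CPM with bortezomib and 227 to 268 CPM with nelfinavir. SESN2 rose 11.9-fold with bortezomib and fell by 1.10 on the log2 scale when ISRIB was added (adjusted p = 2.443e-07). VLDLR had 6 counts over the 4 DMSO libraries together, and measured 1.94 to 5.91 CPM with bortezomib and 4.8 to 6.57 CPM with nelfinavir.

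Of 6 NRF2 readout genes, 5 were tested, and 4 were higher with bortezomib and 3 with nelfinavir, with medians of 2.27 and 0.49. TXNRD1, a thioredoxin reductase, rose 6.62-fold with bortezomib (log2 2.73, SE 0.165), and its log2 difference was 0.32 with nelfinavir (SE 0.16, adjusted p = 0.1813). GCLM, a subunit of the first enzyme of glutathione synthesis, rose 6.11-fold with bortezomib (log2 2.61, SE 0.139) and 1.83-fold with nelfinavir (log2 0.87, SE 0.136). OSGIN1 rose 4.81-fold and 3.04-fold. NQO1 went the other way, with a log2 difference of 0.05 with bortezomib (SE 0.0755, adjusted p = 0.5896) and 0.49 with nelfinavir (SE 0.0754, adjusted p = 8.787e-06). HMOX1 rose by 0.62 on the log2 scale with bortezomib (SE 0.15, adjusted p = 0.0007278), and its difference with nelfinavir was -0.35 (SE 0.15, adjusted p = 0.1073). CHAC1 of the ATF4 list and SRXN1 of the NRF2 list had too few counts to be tested.

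The 10 carriers did not share 1 profile over the 24 libraries. As a description, Pearson's r of log2 CPM was over 0.9 in 12 of their 45 pairs, with the highest value, 0.986, for SLC7A11 and SLC38A1. It was under 0 in 6 pairs, all of them with SLC43A1, and lowest for SLC38A2 and SLC43A1 at -0.403. The 4 libraries of a condition share their treatment, so the 24 points are not independent. The 10 carriers themselves were left out of the rankings that follow. Among the other tested genes, the ones most like SLC7A11 were ADM2 (r = 0.991) and CCPG1 (r = 0.983). These were also the ones most like SLC38A1 (r = 0.98 and 0.979). SLC1A5 and SLC6A9 were most like ASNS (r = 0.971 and 0.956), followed by SHMT2 (r = 0.961) and YARS (r = 0.952). SLC1A4 was most like DDIT4 (r = 0.962) and DDR2 (r = 0.946), SLC3A2 like JMY (r = 0.972) and PKD1 (r = 0.971), and SLC7A1 like ANKRD11 (r = 0.988) and EIF1 (r = 0.986). SLC38A2 was most like NR0B2 (r = 0.99) and AKR1C1 (r = 0.983), SLC43A1 like SAT2 (r = 0.953) and DCAF11 (r = 0.943), and SLC7A5 like SH3GL1 (r = 0.857) and APOC1 (r = 0.817).

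The genes with a composite core in a promoter window shown above, SLC1A4, SLC1A5, SLC3A2, SLC7A1 and SLC38A1, changed by log2 1.24 to 2.09 with bortezomib and 1.16 to 1.51 with nelfinavir. Among the 4 genes whose windows held none, SLC7A5 and SLC43A1 changed by -0.30 and -0.62 with bortezomib, and SLC38A2 and SLC6A9 by 1.65 and 2.60. With nelfinavir these genes changed by 0.40, 0.80, 1.09 and 3.97, in the same order. With bortezomib, SLC38A2 thus lay within the range of the genes with a core. With nelfinavir, SLC7A5, SLC43A1 and SLC38A2 lay below that range and SLC6A9 above it. Whether a core bears on the change was not tested.

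The reads come from the 3′ end of transcripts, and the strand setting of the counting is not given in the sources used here. Within 1000 bases of the annotated end, a gene on the opposite strand overlapped SLC7A11 (SLC7A11-AS1), SLC1A4 (LINC02245) and SLC6A9 (CCDC24), so that reads of these pairs could not be told apart if strand was not used. The last 500 bases of SLC6A9 matched transcripts of CCDC24 over 151 to 219 bases with full identity. CCDC24 had means of 1.56 to 2.49 CPM over the 6 conditions and was called in no comparison. No further match of a carrier's last 500 bases to another gene was found over at least 80 bases at 97% identity.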

How the data were processed

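Total RNA from 24 HepG2 cultures was made into 3′ libraries (QuantSeq FWD) by the authors, who trimmed the reads with cutadapt 2.8 and aligned them to hg19 with STAR. The deposited table holds raw read counts for each gene. Not given in the sources used here are the counter, its strand setting and any molecular identifiers. The SEs come from the edgeR model and cover differences between replicate libraries as well as counting error. Groups followed the labels. Genes were filtered (at least 5 counts in enough libraries and 25 in total), scaled with TMM and tested in 1 model of all conditions with edgeR 4.0.16 (R 4.3.3), with Benjamini-Hochberg adjustment over 12685 genes. The test was checked on simulated data. Libraries with the same replicate number were not treated as pairs. Alternatives were RLE factors, library totals, DESeq2 1.42.0, other filters, a replicate block, a model of the groups compared and each library left out. The 10 genes and the lists were chosen with earlier results of these data known. All 10 are named, and at most 3 called genes per list, those with the largest change. The NRF2 list is an exception, where all tested genes are named. Likeness was Pearson's r of log2 CPM (prior count 2), ranked with the 10 carriers left out. Promoter sequences were from RefSeq, and transcript ends from GENCODE on GRCh37, aligned with BLAST 2.17.0. A result on 1 neighbouring gene is not reported here.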

Additional observations from a re-analysis of the deposited data

Results flagged for a closer look

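In 3 of 60 sets of 4 libraries (10 carriers in 6 conditions), 1 library stood apart from the other 3 by Dixon's test at the 95% level, which chance gives in about 1 of 20 sets. SLC7A11 was at 35.8 CPM in DMSO replicate 2, against 30.8 to 31.2 CPM in the others. SLC7A5 was at 256 CPM in ISRIB replicate 3, against 167 to 179 CPM. SLC6A9 was at 14.1 CPM in bortezomib replicate 1, against 11.2 to 11.6 CPM.

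The effect of nelfinavir on 7 carriers differed with and without bortezomib (edgeR interaction, log2, adjusted over all genes). It was -3.10 for SLC7A11 (adjusted p = 6.581e-18), -3.12 for SLC6A9 (adjusted p = 1.664e-08), -1.72 for SLC1A4 (adjusted p = 2.095e-11), -1.37 for SLC1A5 (adjusted p = 2.452e-08), -1.05 for SLC38A1 (adjusted p = 8.422e-07), -0.97 for SLC7A1 (adjusted p = 4.105e-07) and -0.54 for SLC38A2 (adjusted p = 0.0003885). The effect of ISRIB differed in this way for 1 carrier, SLC1A4, at -0.79 (adjusted p = 0.0003858).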

How the results depend on the processing

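Counts of carriers called were within 1.5 times the reported ones under most settings. For ISRIB against DMSO, 1 carrier (SLC7A11) was called with no filter and 1 with only the groups compared, against 0 reported. Over all genes this comparison gave 3 calls in DESeq2, 39 with no filter and 80 with only the groups compared, against 0. For bortezomib against nelfinavir, library totals alone gave 5 carriers, against 9, and reversed SLC3A2 (-0.40), SLC1A4 (-0.11) and SLC38A1 (-0.13). For the interaction of ISRIB and bortezomib, DESeq2 called 2 carriers, against 1, and leaving out single libraries gave 1 to 2. Leaving out single libraries gave 9 to 10 carriers for bortezomib and for nelfinavir against DMSO, 3 to 4 for ISRIB added to bortezomib, 8 to 9 for bortezomib against nelfinavir, and the reported counts in the other comparisons. With only the groups compared, calls over all genes went from 2441 to 3873 for nelfinavir against DMSO, from 3669 to 2246 for nelfinavir added to bortezomib and from 1553 to 867 for ISRIB added to bortezomib, and the cause was not tested. With totals free of mitochondrial genes, the interaction of nelfinavir and bortezomib was called in 9 carriers, SLC3A2 (-0.42) and SLC43A1 (-0.47) included. The share of higher genes among all calls was then 33.4% for bortezomib against DMSO (51.6% on the TMM scale), 27.8% for nelfinavir added to bortezomib (53.8%), 33.6% for bortezomib with ISRIB against DMSO (52.7%), 33.8% for bortezomib against nelfinavir (51.6%) and 31.7% for the interaction of nelfinavir and bortezomib (49.3%). With a replicate block, ISRIB added to bortezomib gave 5 called carriers against 4 (SLC1A5 at -0.31, adjusted p = 0.02454 in edgeR), all other comparisons gave the reported counts, and calls over all genes rose 1.01 to 1.13 times where there were any. The SLC1A5 call was not particular to the block, as all 8 alternative settings that kept every library gave it. Of the libraries, 14 of 24 were closest on average to their own replicate number. A correlation over 0.1 was found in 10 of 60 pairs sharing a number and in 7 of 180 others. Libraries sharing a number were thus alike more often than the others. The main model left the number out, and only the replicate block included it. Depth limits SLC6A9 most, with 6 to 23 counts per DMSO library.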

Other observations

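SLC7A6, a cationic and neutral amino acid exchanger that also pairs with SLC3A2, was picked out after its values were seen. It ranged from 14.3 to 21.8 CPM in DMSO, from 15.2 to 17.6 CPM with nelfinavir and from 12.3 to 19.5 CPM with bortezomib, and these groups overlapped. With bortezomib and nelfinavir it ranged from 35.3 to 42 CPM, and with bortezomib and ISRIB from 28.7 to 32.4 CPM, above every library of the other conditions. The log2 fold change against bortezomib alone was 1.24 on addition of nelfinavir (SE 0.147, edgeR adjusted p = 7.612e-08) and 0.89 on addition of ISRIB (SE 0.149, adjusted p = 8.237e-05). The interaction with bortezomib was 1.38 for nelfinavir (adjusted p = 7.362e-06) and 0.92 for ISRIB (adjusted p = 0.005715), whereas all called interactions among the 10 carriers were negative.

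The taurine carrier SLC6A6, also picked out after its values were seen, ranged from 9.06 to 13.8 CPM in DMSO, from 23.3 to 32.3 CPM with bortezomib and from 41 to 55.9 CPM with bortezomib and ISRIB. Addition of ISRIB to bortezomib raised it 1.74-fold (log2 0.80, SE 0.168, edgeR adjusted p = 0.001228), the direction seen in SLC38A2.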
